A study of Mus musculus with 6 samples.

Results

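Transforming growth factor beta (TGF-beta) signaling was examined through 8 genes, measured in neoplastic cells sorted from mouse lung tumors. The genes were the ligands Tgfb1, Tgfb2 and Tgfb3, the receptors Tgfbr1 and Tgfbr2, the signal transducer Smad3, the inhibitor Smad7 and the target Tgfbi. They are 8 of the 31055 features of the count matrix, found by symbol, and they were chosen from earlier results on these same cells. Their levels are therefore given as a description, with no test.

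TGF-beta ligands are secreted in a latent form that is held by binding proteins and released by integrins, proteases or thrombospondin. A released ligand joins the type II receptor TGFBR2, which activates the type I receptor TGFBR1, and the receptor pair phosphorylates SMAD2 and SMAD3. These enter the nucleus with SMAD4 and bind DNA at short CAGAC boxes, and SMAD7 is induced in turn and blocks the receptor. In the lung epithelium the pathway is known for restraining proliferation and for its part in the passage of alveolar type II cells, which make surfactant, to the flat alveolar type I cells of the gas-exchange surface.

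All 6 mice carried Lkb1XTR/XTR and Rosa26LSL-tdTomato, with Lkb1 (symbol Stk11) carrying a reversible gene trap, whose transcript includes green fluorescent protein (GFP). Lentiviral Cre given into the trachea started the tumors and set the trap in the same cells, and tumors grew for 20 weeks before harvest, which followed 2 weeks of tamoxifen (4 mg doses) or vehicle. The 3 Restored mice also carried FLPo-ERT2, a recombinase that removes the trap, and received tamoxifen. Of the 3 NonRestored mice, 1 lacked FLPo-ERT2 and received tamoxifen, 1 lacked it and received vehicle, and 1 carried it and received vehicle. Nodules of a lung were pooled and digested, and blood, endothelial and dead cells were sorted away. Per the study's methods, tumors were started in young adult mice of both sexes. The labels give no age, and no file used here ties a cell to its mouse. Restored and NonRestored mice were therefore not compared, and the pooled matrix counted as 1 sample.

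After removal of cells with under 500 genes or over 20% mitochondrial transcripts, 12183 of 16017 cells remained, with a median of 19348 unique molecular identifiers (UMIs, the tags that count each captured transcript once). Gates were set on UMIs per 10000 in each cell. ATII cells had Sftpc at 500 or more, Hopx under 2 and Krt8 plus Krt18 under 50, and were split at a Lyz2 of 100 into 3429 Lyz2-high and 3546 Lyz2-low cells. ATI cells (956) had Hopx at 15 or more and keratins under 50, and keratin-high cells (1183) had keratins at 50 or more. Among markers that the gates did not use, all 10 ATII markers (in each ATII gate) and all 11 ATI markers were at least 2-fold over the other gates (for ATII markers, over the gates that are not ATII), as were 6 of 7 markers of the keratin transitional state, without Cdkn1a. The gates are ranges of a continuum: 1527 cells lay at a keratin value of 25 to 50 and 849 at 50 to 100, 829 cells lay at a Hopx of 5 to 15 and 462 at 15 to 30, and 1224 ATII cells lay at a Lyz2 of 50 to 100 and 1829 at 100 to 200. Summed markers of endothelial cells in the 4 gates were between 0.117% and 0.310% of their level in endothelial cells of the same matrix, those of fibroblasts between 0.0189% and 0.103%, and those of immune cells at most 0.0892%. The mesothelial pair Msln and Upk3b summed to 125 UMIs per 1000000 in keratin-high cells and 39.0 in ATI cells, all of it Msln, with Upk3b at 0 in both gates.

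The promoter sequences of Tgfbi and Tgfb2, the members with the largest differences below, are shown because SMAD proteins bind such short boxes. RefSeq promoters on GRCm38.p6 matched 6 of the 8 genes, without Tgfb3 and Smad7, and Tgfbr1 had more than 1 start site. The bases before the first annotated base of each gene are printed 5′ to 3′ on the gene's strand, with CAGAC or its complement GTCTG in capitals. The Tgfbi sequence is chr13:56609336-56609522, plus strand, and the Tgfb2 sequence chr1:186705990-186706239, minus strand, where an exon of the antisense gene Gm29491 lies.
Tgfbi: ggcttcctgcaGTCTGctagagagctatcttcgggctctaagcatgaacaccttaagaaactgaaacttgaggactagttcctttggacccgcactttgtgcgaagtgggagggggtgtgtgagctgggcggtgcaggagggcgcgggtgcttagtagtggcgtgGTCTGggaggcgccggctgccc
Tgfb2: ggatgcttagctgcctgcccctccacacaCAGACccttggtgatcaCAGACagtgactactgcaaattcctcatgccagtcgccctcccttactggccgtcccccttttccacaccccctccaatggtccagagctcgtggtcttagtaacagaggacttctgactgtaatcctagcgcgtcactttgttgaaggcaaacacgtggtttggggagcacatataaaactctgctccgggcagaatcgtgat

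Each of the 2 promoters held 2 boxes, Tgfbr2 held 1, Tgfbr1 held none at 1 start site and 1 at the other, and Tgfb1 and Smad3 held none, in windows of 300 bases. On either strand, 49.6% of all 32817 promoters of that length hold a box, so such a box is common. Neither the palindrome GTCTAGAC (in 0.213% of promoters), nor the AP-1 site TGACTCA (5.20%), the TEAD site GGAATG (14.7%) or the CRE TGACGTCA (1.79%) was found in any member's window. A match is only a match of letters.

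The first question was where the ligands are transcribed. Levels are given as CPM, a gene's summed UMIs in a gate per 1000000 of all its UMIs, with exact Poisson 95% intervals that cover counting error only, as do all intervals here, and variation between mice is not part of them. Tgfb2 was the most unevenly spread ligand. It was at 42.1 CPM in ATI cells (38.7 to 45.7), 17.0 CPM in keratin-high cells (15.6 to 18.5), 1.90 CPM in ATII Lyz2-low cells (1.60 to 2.24) and 0.827 CPM in ATII Lyz2-high cells (0.648 to 1.04). The 4 intervals did not overlap, so ATI cells stood highest, keratin-high cells in between and both ATII gates near the bottom. Tgfb2 was 50.9-fold higher in ATI than in ATII Lyz2-high cells (39.9 to 65.9) and 20.5-fold higher in keratin-high cells (16.1 to 26.6). These became 80.6-fold and 32.5-fold with Lyz2 split at 200, and 37.5-fold and 15.02-fold relative to the median feature.

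Tgfb3 had a similar order of gates, at lower CPM than Tgfb2 in ATI and keratin-high cells but not in the ATII gates. It was at 11.8 CPM in ATI cells (10.1 to 13.8) and 11.0 CPM in keratin-high cells (9.85 to 12.2), whose intervals overlapped, against 2.29 CPM in ATII Lyz2-low (1.96 to 2.67) and 1.76 CPM in ATII Lyz2-high cells (1.49 to 2.06), which overlapped as well. Both ATII gates lay well below the other gates. Tgfb1, the most widely expressed ligand of the family in the body, varied least of the 3 ligands, from 30.2 CPM in ATII Lyz2-high cells (29.1 to 31.4) through 36.1 CPM in ATII Lyz2-low (34.7 to 37.5) and 41.4 CPM in ATI (38.0 to 45.0) to 60.2 CPM in keratin-high cells (57.5 to 63.0). Keratin-high cells were the highest and ATII Lyz2-high cells the lowest.

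Receptor levels split by type. Tgfbr2, the ligand-binding receptor, was at 111 CPM in keratin-high cells (107 to 114) and 108 CPM in ATI cells (102 to 113), whose intervals overlapped, then at 68.5 CPM in ATII Lyz2-low (66.6 to 70.4) and 49.5 CPM in ATII Lyz2-high cells (48.1 to 51.0). Tgfbr1, the kinase that passes the signal on, was instead lowest in ATI cells, at 18.7 CPM (16.5 to 21.2), and at 29.2 CPM in ATII Lyz2-high (28.1 to 30.3), 32.3 CPM in ATII Lyz2-low (31.0 to 33.6) and 38.2 CPM in keratin-high cells (36.1 to 40.5). ATI cells thus had a high type II and a low type I receptor level, while keratin-high cells were highest for Tgfbr1 and did not lie apart from ATI cells for Tgfbr2.

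Smad3 and Smad7 differed less. Smad3 was at 13.2 CPM in ATII Lyz2-high (12.5 to 14.0), 17.8 CPM in ATI (15.6 to 20.2), 18.6 CPM in ATII Lyz2-low (17.6 to 19.6) and 23.8 CPM in keratin-high cells (22.1 to 25.6), with overlap between ATI and ATII Lyz2-low cells. Smad7 was at 49.2 CPM (47.8 to 50.7), 67.0 CPM (65.1 to 68.9), 83.6 CPM (78.8 to 88.7) and 88.0 CPM (84.7 to 91.4) in ATII Lyz2-high, ATII Lyz2-low, ATI and keratin-high cells, and the intervals of ATI and keratin-high cells overlapped. No gate was 2-fold above another for either gene.

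Tgfbi, a secreted extracellular matrix protein named for its induction by TGF-beta, was ordered differently from the ligands. It was highest in ATII Lyz2-low cells at 213 CPM (209 to 216), followed by keratin-high cells at 199 CPM (194 to 204) and ATII Lyz2-high cells at 118 CPM (116 to 120.1). ATI cells, which had the most Tgfb2, had the least Tgfbi, at 27.7 CPM (24.9 to 30.6). This order over all cells of a gate depends on its mix of cells with GFP and with Stk11 transcript, described below: keratin-high cells lay below ATII Lyz2-high cells within the GFP-positive class (239.7 against 299 CPM) and within the Stk11-positive class (29.9 against 45.9 CPM). GFP-positive cells made up 54.3% of keratin-high and 17.3% of ATII Lyz2-high cells. Among cells with neither transcript keratin-high cells were the highest, at 197 CPM (186 to 208) against 179.6 CPM (174 to 185) in ATII Lyz2-low cells, and ATI cells were the lowest in all 3 classes.

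**Figure D1:**
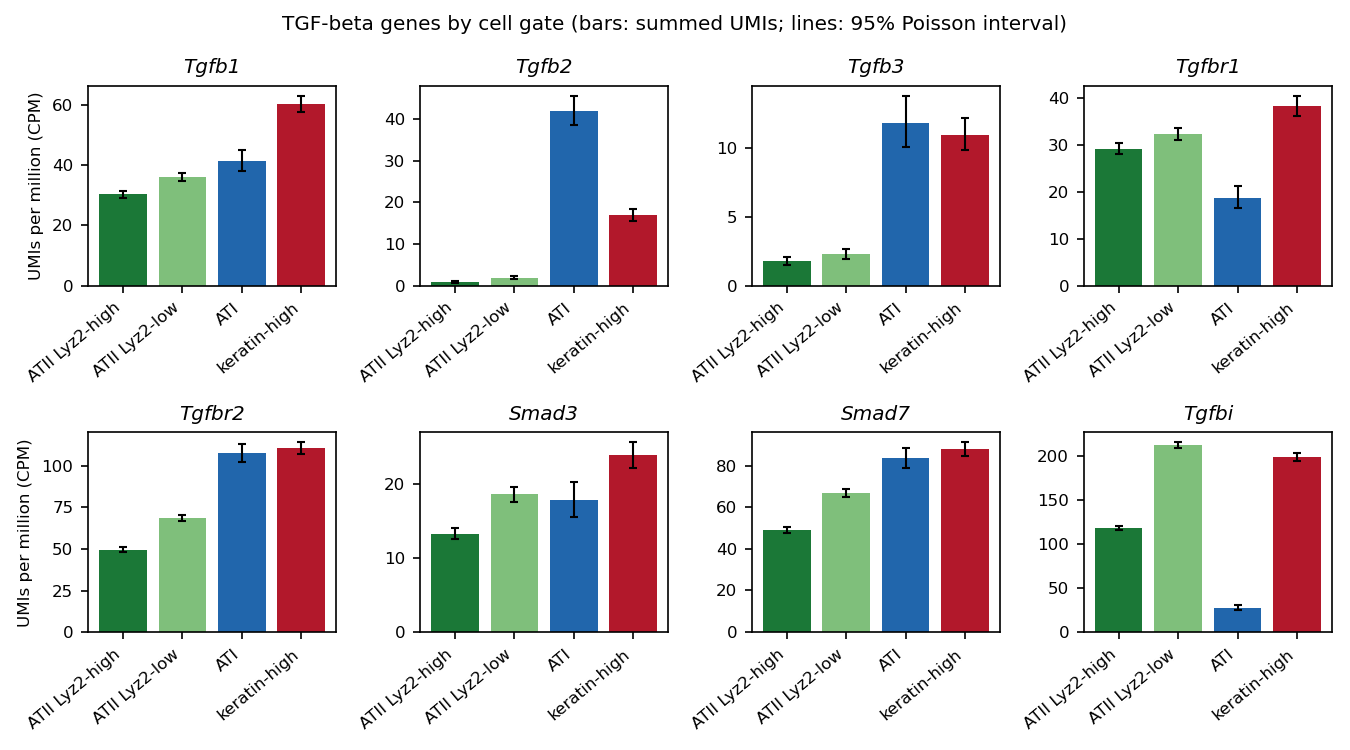
Level of each of the 8 genes in the 4 gates, with UMIs per 1000000 (CPM) on the vertical axis of each panel, bars for summed UMIs and lines for 95% Poisson intervals. Tgfb2 was at 42.1 CPM in ATI cells against 0.827 CPM in ATII Lyz2-high cells, while Tgfbi was lowest in ATI cells, at 27.7 CPM.

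To read these differences against the rest of the transcriptome, a gene was called when 2 groups differed at least 2-fold in CPM, among the 12323 features with at least 1 CPM over all retained cells, which all 8 members passed. Between ATII Lyz2-low and ATII Lyz2-high cells, 1 member was higher (Tgfb2, 2.29-fold, 1.72 to 3.09), where 5.06% of all features were, and no member was lower, where 0.885% were. The 2.29 became 1.97 relative to the median feature, whose own log2 ratio was 0.22, and the call was then lost. In ATI over ATII Lyz2-high cells, 3 members were higher (Tgfb2, Tgfb3 by 6.74-fold, 5.37 to 8.47, and Tgfbr2 by 2.17-fold, 2.05 to 2.31) and 1 was lower (Tgfbi, 4.26-fold, 3.84 to 4.74), against 17.3% and 7.90% of features. With ATI cells set at a Hopx of 25 or more, the Tgfbi ratio moved from 0.235 to 0.127. In keratin-high over ATII Lyz2-high cells, 3 were higher (Tgfb2, Tgfb3 by 6.26-fold, 5.16 to 7.62, and Tgfbr2 by 2.23-fold, 2.14 to 2.34) and none lower, against 19.9% and 7.25%. Tgfb1 stood just outside at 1.99-fold (1.88 to 2.11), was called in 6 of 14 other settings (up to 2.13-fold) and was at 1.46-fold relative to the median feature.

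In these comparisons the median feature had log2 ratios of 0.44 and 0.45, and Tgfbr2 lost its call relative to it (1.60 and 1.63-fold). The direction of Smad3 in ATI cells, and of Tgfbr1 in keratin-high and ATII Lyz2-low cells over ATII Lyz2-high cells, turned when taken relative to the median feature, and Tgfbr1 in ATI cells, at a ratio of 0.642, was then called lower (log2 ratio -1.08). In keratin-high over ATI cells, 2 members were higher (Tgfbi, 7.19-fold, 6.48 to 8.01, and Tgfbr1, 2.04-fold, 1.78 to 2.35) and 1 lower (Tgfb2, 2.48-fold, 2.20 to 2.80), against 8.54% and 5.68% of features, with the median feature near 0 (0.0059). At a Hopx of 25 or more the Tgfbi ratio was 13.3. The Tgfbr1 call was lost in 5 of 14 other settings, with a smallest value of 1.83-fold. Members' median log2 ratios in the 4 comparisons were 0.46, 0.61, 0.92 and 0.25, each above the median of all features. The members were chosen from earlier results on these same cells, so this describes the chosen genes only.

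Along Hopx, in cells with low keratins, Tgfb2 and Tgfbi were graded in opposite directions. These bins hold all retained cells, and 442 endothelial, fibroblast and myeloid cells, of which 1 lay in the 4 gates, were left out as an alternative added after seeing the data. Tgfb2 was at 3.51 CPM below a Hopx of 2 (3.24 to 3.80), and at 1.75 CPM (1.56 to 1.96) without those cells. It was at 11.3, 23.8, 38.6 and 46.6 CPM in the bins to 5, 15, 30 and above (last interval 41.2 to 52.5), and between 11.3 and 46.6 CPM without those cells. Tgfbi was at 165, 115, 89.7, 39.8 and 12.0 CPM in the 5 bins (163 to 167 in the first and 9.35 to 15.2 in the last), and at 165 and 12.0 CPM in the end bins without those cells. Both genes thus passed through intermediate levels in the cells between the ATII and ATI gates. Tgfbr2 went from 65.9 (60.2 without other lineages) to 116 CPM between the lowest and the highest of these bins, while Tgfb3 was highest in the middle bin, at 14.5 CPM (12.7 to 16.6), and 10.6 CPM (8.14 to 13.6) at the top. Median UMIs per cell went from 20250 to 10204.5 between the end bins, and the part of depth in these levels was not tested.

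Along Krt8 plus Krt18, Tgfb1 was at 40.1 CPM below a keratin value of 10 in all retained cells, but at 29.4 CPM (28.4 to 30.4) without the endothelial, fibroblast and myeloid cells, whose own Tgfb1 levels were between 172 and 305 CPM. Without them it was graded along the keratins, at 37.0 CPM (35.6 to 38.4) up to 25, 41.6 CPM (39.4 to 44.0) up to 50 and 57.9 CPM (54.7 to 61.2) up to 100. It was at 63.9 CPM (58.6 to 69.6) up to 200 and 77.7 CPM (61.8 to 96.5, 40 cells) above. From a keratin value of 50 on, the intervals of neighboring bins overlapped. Tgfbr2 without those cells went from 50.3 to 108 CPM already below the border of the keratin-high gate (49.0 to 51.7 and 104 to 112), and was between 105 and 124 CPM above it. Within keratin-high cells, 127 cells with Hopx at 15 or more had 44.5 CPM of Tgfb2 (36.0 to 54.4), against 14.9 CPM (13.5 to 16.4) in the 1056 with less Hopx, and the order was turned for Tgfbi, at 50.1 CPM (41.1 to 60.5) against 210.1 CPM (205 to 215), and for Tgfbr1, at 15.5 CPM (10.6 to 21.7) against 39.9 CPM (37.6 to 42.3). Of the members called between ATI and ATII cells, Tgfb2 and Tgfbi thus also differed between keratin-high cells of high and low Hopx, whereas the intervals overlapped for Tgfbr2 (114 and 110.4 CPM) and Tgfb3 (15.5 and 10.7 CPM), as they did for Tgfb1, Smad3 and Smad7.

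Along Lyz2 within ATII cells, all 8 members had their lowest level in the bin of 200 or more, as did 64.9% of all features, so this is common. For Tgfb3 that level, 1.73 CPM (1.36 to 2.16), was hardly below the 1.79 CPM of the next bin. Tgfbi was at 244, 217, 180.5, 133 and 102 CPM from the lowest to the highest Lyz2 bin, and Tgfbr2 at 78.8, 68.0, 59.4, 51.8 and 47.3 CPM. Each of these 5 Tgfbi intervals lay apart from its neighbors. GFP-positive cells made up 32.4% of ATII Lyz2-low and 17.3% of ATII Lyz2-high cells, and Stk11-positive cells 23.6% and 44.2%. In Lyz2-low and Lyz2-high cells Tgfbi was at 343 and 299 CPM within the GFP-positive class and at 61.9 and 45.9 CPM within the Stk11-positive class. With neither transcript it was at 179.6 and 107 CPM. The part of this mix in the Lyz2 bins was not tested. Tgfb2 was at 2.60 CPM (1.99 to 3.33) in the lowest and 0.522 CPM (0.331 to 0.784) in the highest bin.

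**Figure D2:**
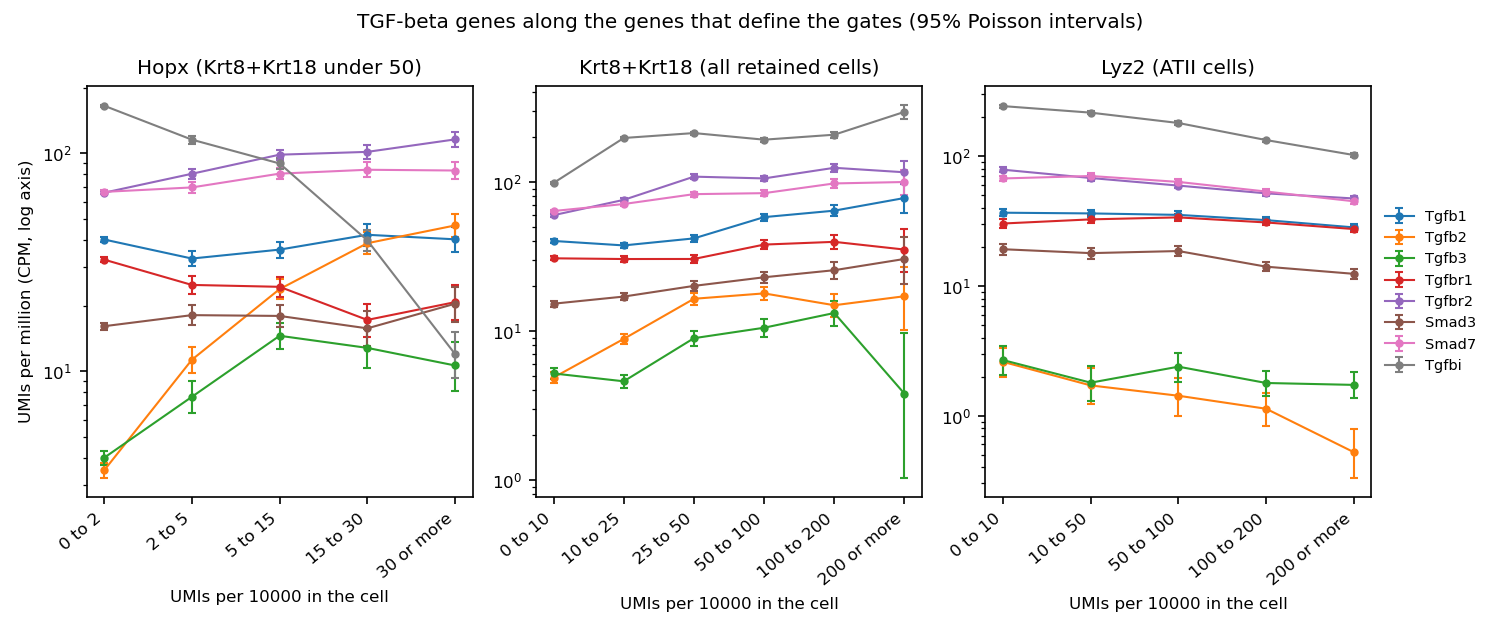
CPM of the 8 genes on a log axis over bins of Hopx (cells with keratins under 50), Krt8 plus Krt18 (all retained cells, other lineages included) and Lyz2 (ATII cells), each in UMIs per 10000 of the cell, with 95% Poisson intervals. Tgfb2 goes from 3.51 to 46.6 CPM and Tgfbi from 165 to 12.0 CPM across the Hopx bins.

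The next question was whether the genes differ between cells that carry the trap transcript and cells that carry Stk11 transcript. In the 4 gates, 2626 cells had a GFP UMI and no Stk11 UMI, 2784 had a Stk11 UMI and no GFP UMI, 20 had both and 3684 had neither. The first and second of these classes had similar depth (median 25143.5 and 24117 UMIs). They are classes of cells and not groups of mice, and the class of a cell cannot be told apart from its mouse or tumor. They also differed in make-up: keratin-high cells were 24.4% of GFP-positive and 5.93% of Stk11-positive cells.

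Tgfbi separated these classes more than any other member. It was at 286 CPM in GFP-positive cells (282 to 290.3) and 46.8 CPM in Stk11-positive cells (45.2 to 48.4), a 6.12-fold difference (5.90 to 6.35), and cells with neither transcript lay in between at 137 CPM (134 to 140). It was the only member called, where 5.62% of features were higher and 2.15% lower in GFP-positive cells, and its ratio was number 58 from the highest of 12323. With equal weight for the 4 gates the ratio was 6.69. Summed fibroblast markers were at 17.5 CPM in GFP-positive and 51.0 CPM in Stk11-positive cells, and without the 81 cells of the gates with 2 or more UMIs of other lineages the ratio was 6.11.

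Within each gate Tgfbi was again higher in GFP-positive cells. In ATII Lyz2-high cells it was at 299 CPM (292 to 307) against 45.9 CPM (43.9 to 48.0), 6.52-fold, where 1 member was called and 3.98% of features were higher. In ATII Lyz2-low cells it was at 343 CPM (336 to 349.8) against 61.9 CPM (58.6 to 65.4), 5.54-fold, again the only member called, against 4.76% of features. In ATI cells, where the gene was lowest, the 266 Stk11-positive cells held 16 UMIs in all, 3.63 CPM (2.07 to 5.89), against 64.0 CPM (56.7 to 71.9) in the 242 GFP-positive cells. The difference there was 17.6-fold (10.7 to 31.3) and 7.71-fold with ATI cells set at a Hopx of 25 or more, with 1 member called and 4.50% of features higher. The level in Stk11-positive ATI cells was below the 26.2 CPM (18.9 to 35.5) of endothelial cells, and it was not separated from free RNA, so the size of this ratio rests on a level near 0. In keratin-high cells the levels were 239.7 CPM (233 to 247) and 29.9 CPM (25.2 to 35.4), 8.01-fold (6.76 to 9.55), with 1 member called against 5.43% of features. The interval of the lower level overlapped that of endothelial cells, and this level was not separated from free RNA either. GFP-positive ATI cells thus had a Tgfbi level close to that of Stk11-positive ATII Lyz2-low cells.

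Tgfbr2 was the next highest member in GFP-positive cells, at 92.1 CPM (89.9 to 94.3) against 49.7 CPM (48.1 to 51.4), 1.85-fold (1.78 to 1.93), below the 2-fold mark. Inside the gates its ratio was 1.80 (1.68 to 1.94) in ATII Lyz2-high, 1.73 (1.60 to 1.86) in ATII Lyz2-low, 1.16 (1.02 to 1.32) in ATI and 1.34 (1.20 to 1.49) in keratin-high cells. With equal weight of the gates it was 1.41. This class difference was thus largest in the ATII gates, where the gene had its lowest levels. Within GFP-positive cells Tgfbr2 was at 116 CPM in keratin-high, 116 CPM in ATI and 73.9 CPM in ATII Lyz2-high cells, under 2-fold. In the same order it was at 86.6, 99.9 and 41.0 CPM within Stk11-positive cells. With neither transcript it was at 112, 107 and 46.6 CPM, and both of these classes were above 2-fold.

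The ligands showed no such separation. Tgfb1 was at 44.3 and 33.2 CPM in GFP-positive and Stk11-positive cells, Tgfb2 at 7.45 and 4.92 CPM and Tgfb3 at 4.92 and 3.19 CPM, ratios of 1.33, 1.51 and 1.54. With equal weight of the gates these were 1.02, 0.830 and 0.859, so that the direction turned for Tgfb2 and Tgfb3. In keratin-high cells Tgfb2 was lower in GFP-positive cells, at 14.95 CPM (13.3 to 16.8) against 24.6 CPM (20.3 to 29.5), a ratio of 0.609 (0.489 to 0.762). Tgfbr1, Smad3 and Smad7 had ratios of 1.23, 1.29 and 1.35 overall and of 1.06, 1.04 and 1.07 with equal weight. Smad7 was lower in GFP-positive keratin-high cells (0.806, 0.726 to 0.895) and higher in GFP-positive ATII cells (1.28 and 1.33 in the Lyz2-high and Lyz2-low gates). The members' median log2 ratio between the classes was 0.51, beside 0.22 for all features. Within ATII Lyz2-high and Lyz2-low cells it was 0.39 and 0.28 (0.11 and 0.15 for all features). Within ATI and keratin-high cells it was 0.017 and -0.18, below the 0.11 and 0.030 of all features.

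**Figure D3:**
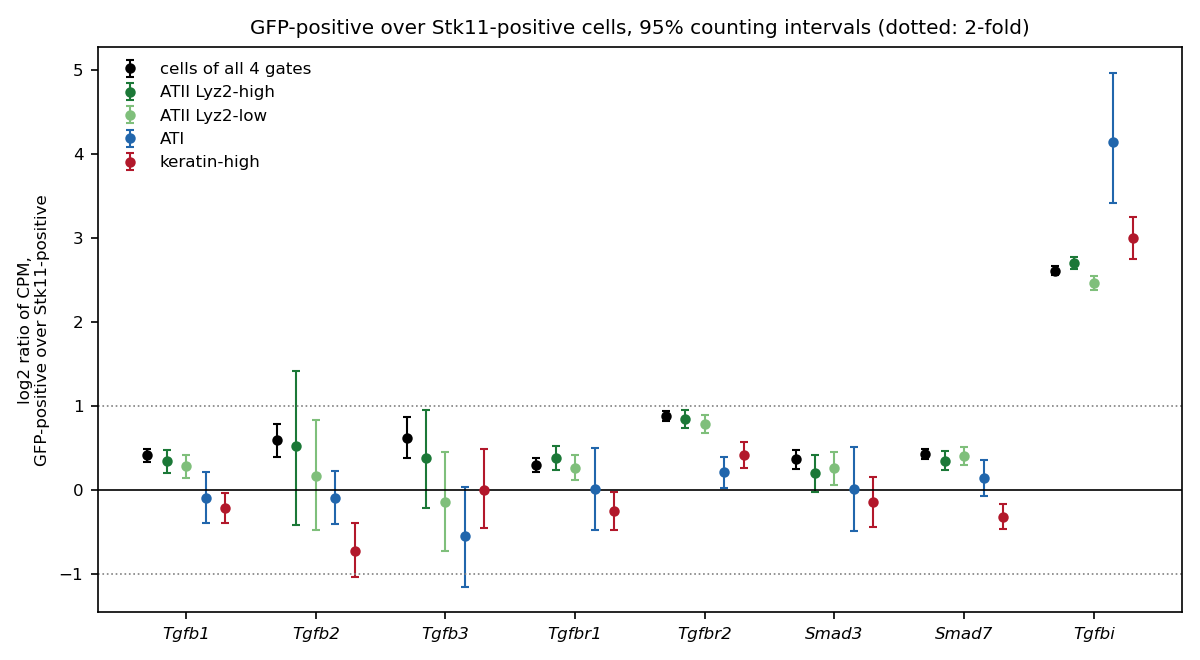
Log2 ratio of CPM of GFP-positive over Stk11-positive cells for each gene, over cells of all 4 gates (black) and within each gate (colors), with 95% counting intervals and dotted lines at 2-fold. Tgfbi is above 2-fold in every gate, with overall ratio 6.12, and Tgfbr2 is at 1.85 overall.

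The number of GFP or Stk11 UMIs in a cell added little to the class itself. Tgfbi was at 292, 292, 278 and 271 CPM in cells with 1, 2, 3 to 4 and 5 or more GFP UMIs, and at 41.6, 50.6, 53.5 and 52.2 CPM in cells with as many Stk11 UMIs. A single UMI of either transcript thus already separated the levels, although median depth went from 21277.5 to 40166.5 UMIs over the GFP bins.

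**Figure D4:**
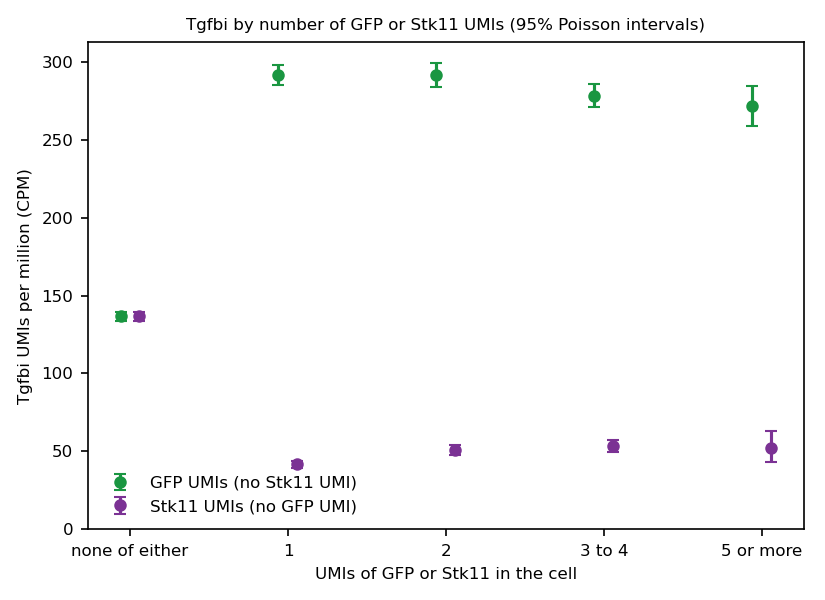
Tgfbi level (CPM, with 95% Poisson intervals) in cells of the 4 gates by the number of GFP UMIs (no Stk11 UMI) or Stk11 UMIs (no GFP UMI), with cells that had neither at the left. GFP-positive bins sit between 271 and 292 CPM and Stk11-positive bins between 41.6 and 53.5 CPM.

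Shares of cells with a UMI were taken after each cell was thinned to 5000 UMIs, with exact binomial 95% intervals. A Tgfbi UMI was found in 59.5% of GFP-positive (57.6 to 61.4) and 13.6% of Stk11-positive cells (12.4 to 14.97), and in 84.5% and 39.4% before thinning. By gate the thinned share was 29.0% in ATII Lyz2-high, 44.5% in ATII Lyz2-low, 7.37% in ATI and 41.0% in keratin-high cells. Among other cell types of the matrix it was 64.7% in myeloid cells (52.2 to 75.9, n = 68 cells), 18.0% in fibroblasts and 11.4% in endothelial cells (5.34 to 20.5). The interval of endothelial cells overlapped those of ATI cells (5.70 to 9.35) and of Stk11-positive cells (12.4 to 14.97).

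A Tgfb2 UMI was found after thinning in 18.7% of ATI cells (16.1 to 21.5) and 8.72% of keratin-high cells (7.11 to 10.5), against 34.9% and 23.6% before. In ATII cells the thinned shares were 0.413% (Lyz2-high) and 1.01% (Lyz2-low), beside 1.47% of myeloid cells (0.0372 to 7.92, n = 68 cells), and median depths before thinning were 24514, 18716 and 23683.5 UMIs. Tgfb3 shares in ATII cells were 0.649% and 1.18%, beside 1.27% of endothelial cells (0.0320 to 6.85, n = 79 cells) and 0% of myeloid cells (0 to 5.28, n = 68 cells). These reference groups are too small to set a background level for either gene. UMIs from free RNA and from expression in ATII cells were not separated, and the fold differences of Tgfb2 and Tgfb3 over ATII cells rest on these low ATII levels. At least 1 ligand UMI was found in 13.5% of ATII Lyz2-high, 17.2% of ATII Lyz2-low, 36.9% of ATI (33.6 to 40.2) and 35.3% of keratin-high cells (32.5 to 38.2), and UMIs of both receptors in 3.04%, 4.11%, 4.64% and 6.33%. Keratin-high cells had the largest share with both receptors, though its interval (4.96 to 7.94) overlapped that of ATI cells (3.32 to 6.29).

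The wider pathway was described with a list of 60 genes, of which 52 are not members and 45 of those passed 1 CPM. In all, 31 of these 45 were called in at least 1 of the 5 comparisons between gates or classes, as were 39.0% of all features. Between ATII Lyz2-low and Lyz2-high cells 10 were higher and 1 lower (5.06% and 0.885% of all features), in ATI over ATII Lyz2-high cells 14 and 5 (17.3% and 7.90%), and in keratin-high over ATII Lyz2-high cells 19 and 5 (19.9% and 7.25%). In keratin-high over ATI cells 13 and 4 were called (8.54% and 5.68%), and in GFP-positive over Stk11-positive cells 7 and 2 (5.62% and 2.15%). Summed fibroblast markers were at 53.8 CPM in ATII Lyz2-low against 11.9 CPM in Lyz2-high cells, where the called genes included Fbn1 (3.52-fold, 1.84 to 7.21), Ltbp1 (2.58-fold, 0.991 to 7.49, an interval that includes 1), Ltbp4 and Tagln (7.81-fold, 4.91 to 13.02), and the part of fibroblast RNA in this was not tested. The median log2 ratios of the 45 were 0.37, 0.36, 0.84, 0.21 and 0.22, beside 0.22, 0.44, 0.45, 0.0059 and 0.22 for all features.

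Among the other ligands, 3 were measurable. Inhbb, which encodes an activin subunit, was lower in ATI (5.85 CPM) and keratin-high cells (10.9 CPM) than in ATII Lyz2-high cells (42.04 CPM), by 7.19-fold and 3.85-fold. Inhba, the other activin subunit, was at 10.8 CPM in Stk11-positive and 0.302 CPM in GFP-positive keratin-high cells, 35.7-fold lower in the latter (15.3 to 102), where it rests on 6 UMIs. Gdf11 was 2.03-fold higher in GFP-positive cells over the 4 gates, and under 2-fold relative to the median feature.

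Of 10 genes that hold or release latent ligand, 6 were higher and 1 lower in keratin-high than in ATII Lyz2-high cells, where 19.9% and 7.25% of all features were. In ATI over ATII Lyz2-high, ATII Lyz2-low over Lyz2-high, keratin-high over ATI and GFP-positive over Stk11-positive cells, 3, 3, 4 and 2 were higher (17.3%, 5.06%, 8.54% and 5.62% of all features), and in the last 2 were lower (2.15%). Itgb6, the epithelial integrin subunit that activates latent TGF-beta together with Itgav, was at 120 CPM in ATI and 123 CPM in keratin-high cells against 4.69 CPM in ATII Lyz2-high cells, 25.5-fold (22.9 to 28.5) and 26.3-fold (23.7 to 29.1) higher. Itgav followed at 77.1, 159 and 36.5 CPM in the same gates. Thbs1, which encodes the activator thrombospondin, was 3.32-fold higher in keratin-high than in ATII Lyz2-high cells and not called in ATI cells (0.855). Itgav and Thbs1 were also higher in GFP-positive cells (2.09 and 2.27-fold), although no single gate reached 2-fold for either. Relative to the median feature of this comparison, at a log2 ratio of 0.22, both fell under 2-fold. Of the matrix-bound latency proteins and their partner fibrillin, Ltbp1, Ltbp2, Ltbp4 and Fbn1 were each called in some comparison and Ltbp3 in none. Ltbp1 was 16.4-fold higher (7.29 to 43.5) in keratin-high than in ATII Lyz2-high cells, which held 40 and 7 UMIs of it, so the size of this ratio rests on a level near 0. The gene of this role called lower there, Fbn1 (ratio 0.443, 0.0485 to 1.96), had an interval that includes 1. Ltbp1 and Fbn1 were the 2 genes of the list called lower in GFP-positive cells, where summed fibroblast markers were also lower (17.5 against 51.0 CPM), and the part of fibroblast RNA in this was not tested.

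Of the other receptors, Tgfbr3, the coreceptor betaglycan, was 4.59-fold lower in ATI and 2.94-fold lower in keratin-high than in ATII Lyz2-high cells. Acvr2b, Eng and Acvrl1, at 8.54, 5.73 and 4.15 CPM over all retained cells, were each called in at least 1 comparison. The part of endothelial RNA in these calls was not tested. The activin receptors Acvr1b and Acvr2a were called in no comparison. The transducers Smad2, Smad4 and Zfyve9, a SMAD anchor, were called in no comparison, with ratios between 0.994 and 1.81.

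Among the 13 inhibitors and feedback genes, Bambi, a decoy receptor, was 7.74-fold lower in ATI and 4.50-fold lower in keratin-high than in ATII Lyz2-high cells. Pmepa1, a feedback inhibitor, was 2.33-fold higher in keratin-high cells, 1.62-fold lower in ATI cells, and 1.99-fold higher in GFP-positive than in Stk11-positive cells. Fstl3, which binds activins, was 7.21-fold higher in ATI and 5.27-fold higher in keratin-high cells, and Fst, of the same function, was called in the same direction. Smurf1, Tgif1, Tgif2 and Nedd4l were each called in at least 1 comparison, and Skil, Ski, Smurf2, Smad6 and Ppm1a in none.

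The 10 measurable targets included 7 higher and 1 lower in ATI cells (17.3% and 7.90% of all features) and 7 higher and none lower in keratin-high cells (19.9% and 7.25%), each over ATII Lyz2-high cells. Ctgf, a matricellular protein, was at 149 CPM in ATI and 67.1 CPM in keratin-high cells against 2.95 CPM in ATII Lyz2-high cells, 50.7-fold and 22.8-fold higher, and Cdkn2b, an inhibitor of the cell cycle, was 6.41-fold and 3.26-fold higher. Neither was called between the classes, where Ctgf was at 17.6 CPM in GFP-positive against 27.7 CPM in Stk11-positive cells, and in keratin-high cells it was 5.13-fold lower in GFP-positive cells. Fn1, fibronectin, was 3.44-fold (3.32 to 3.57) higher in GFP-positive cells, as Tgfbi was. In the ATII gates its ratio was 3.26 (3.01 to 3.54) and 4.03 (3.72 to 4.37), but in keratin-high cells it was 0.881 (0.839 to 0.925), unlike the 8.01 of Tgfbi. Tagln, a smooth muscle actin-binding protein, was 62.8-fold higher (40.6 to 102) in keratin-high than in ATII Lyz2-high cells, and 9.28-fold higher in GFP-positive than in Stk11-positive keratin-high cells. The first of these ratios rests on a low ATII level, where free RNA was not separated from expression. Tgfb1i1, Tsc22d1, Angptl4 and Snai1 were also called, and Junb in no comparison.

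**Figure D5:**
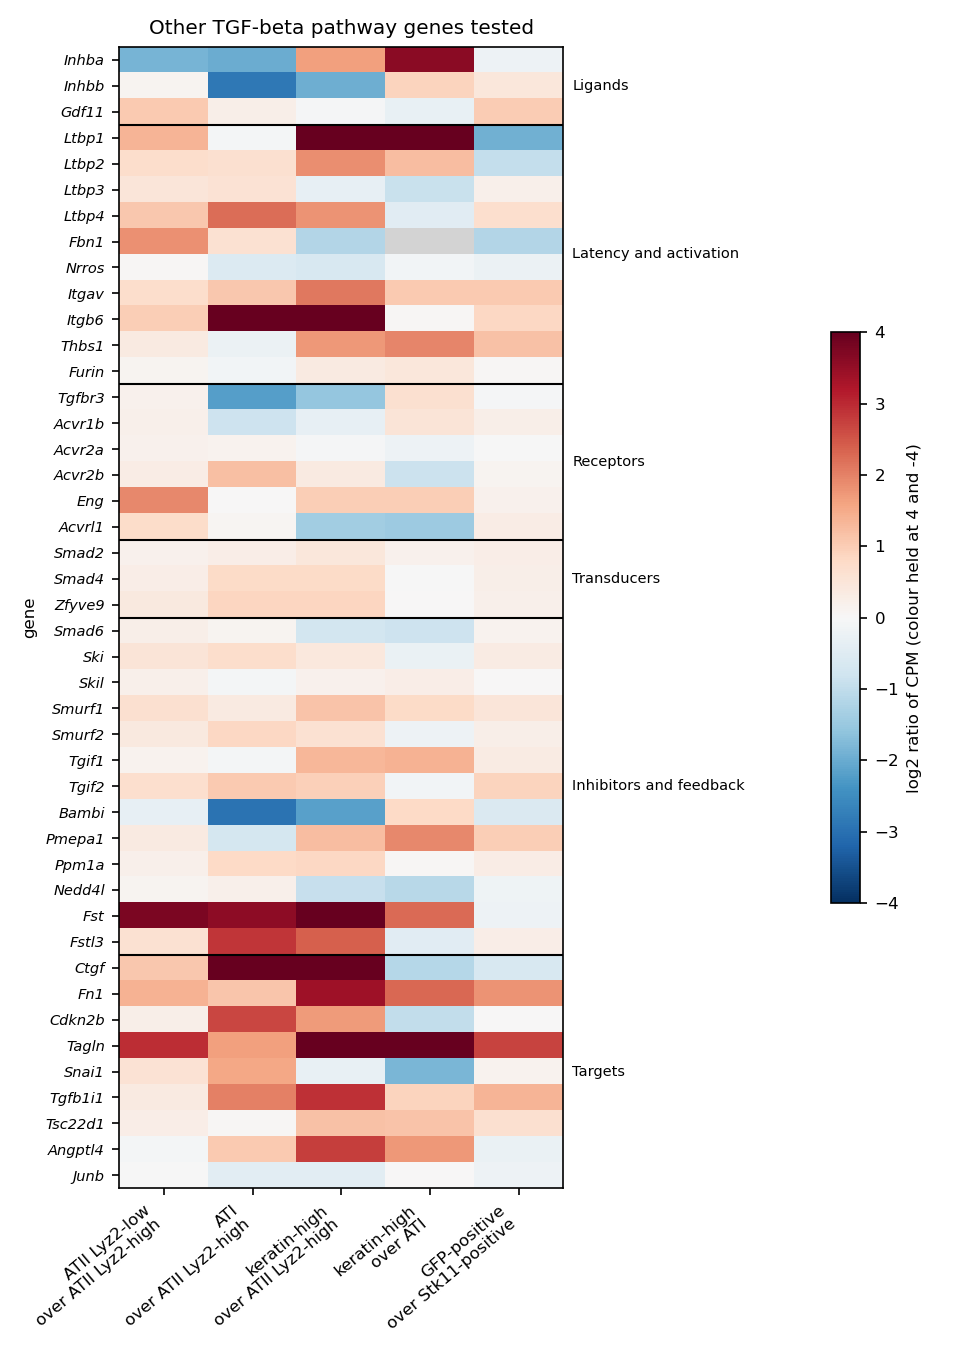
Log2 ratio of CPM in the 5 comparisons (columns) for other pathway genes with at least 1 CPM (rows, by role), red for higher and blue for lower in the first-named cells, held at 4 and -4, with grey where both counts were too low for a ratio. Itgb6 and Ctgf are deep red in ATI and in keratin-high over ATII Lyz2-high cells, and Fn1 and Tagln in GFP-positive cells are at 3.44 and 6.46-fold.

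The features whose levels correlated most with each unevenly spread member were taken over 8 groups, the 4 gates each split into GFP-positive and Stk11-positive cells, among 9567 features with at least 5 CPM. The correlations are of log2(CPM + 1), their points share 1 matrix, and a high r says nothing of the size of the differences: Srp19 ran only from 74.1 to 108 CPM and Ccdc167 from 6.80 to 13.5 CPM over groups in which Tgfbi ran from 3.63 to 343 CPM. Highest for Tgfbi were Srp19 (Pearson r = 0.986), Ccdc167 and Soga1, and highest for Tgfb2 were the claudin Cldn18 (0.997), Mafk and Eps8l2. Tgfb3 correlated most with Cav2 (0.990), Tinagl1 and Gprc5a, Tgfbr1 with Tuba4a (0.989), Ly6d and Dusp4, and Tgfbr2 with Map6 (0.992), Zc3hc1 and Asna1. No feature was among the first 3 of more than 1 of the 5 members.

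On GRCm38 the members lie apart on the genome. Tgfbi (ENSMUSG00000035493) lies on chromosome 13 from 56609523 to 56639562, Tgfb1 (ENSMUSG00000002603) on chromosome 7 from 25687002 to 25705077, Tgfb2 (ENSMUSG00000039239) on chromosome 1 from 186622792 to 186705989 and Tgfb3 (ENSMUSG00000021253) on chromosome 12 from 86056745 to 86079041. The receptors Tgfbr1 (ENSMUSG00000007613; chromosome 4, 47353222 to 47414931) and Tgfbr2 (ENSMUSG00000032440; chromosome 9, 116084293 to 116175360) and Smad3 (ENSMUSG00000032402; chromosome 9, 63646767 to 63757994) follow, and Smad7 (ENSMUSG00000025880) lies on chromosome 18. Tgfb2 and Tgfb3 overlap genes on the opposite strand, and no member overlaps a gene on its own strand.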

How the data were processed

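Sorted tumor cells of 6 mice were profiled with the 10x Genomics 3′ kit (v3), aiming to recover 8000 cells from each. The deposited values are whole UMI counts per feature and cell, which the authors obtained by aligning reads to mm10 and counting with Cell Ranger 3.0.2, and the deposited feature table pairs gene IDs with symbols. The matrix pools all libraries, and neither cell barcodes nor a map from cells to mice were used here. It held 16017 cells and 266713311 UMIs, no 2 of its cell columns were identical, and barcodes shared between libraries could not be counted. The annotation release used for counting is not given in the sources used here.

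Cells with under 500 genes (2081) or with more than 20% mt- UMIs (1753 of the rest) were left out. Retained cells held between 671 and 125731 UMIs. The 4 gates held 9114 cells (74.8%). UMIs were summed per gate or class, with Poisson, conditional binomial (ratios) and Clopper-Pearson (shares) exact 95% intervals, and no p-value was computed, since cells are not replicates. Doublets were not called, and an alternative left out the 5% of cells with the most UMIs in each gate. Endothelial (126), fibroblast (241) and myeloid (78) cells, gated by their own genes, served as reference. Thinning used seed 42 and left out 1099 shallower cells. The ratio step was tested on simulated data.

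The members, the gates and the gene lists were chosen with earlier results of these data known. Members are all named. Of the wider list, genes past 2-fold in any of 5 comparisons and the 3 with highest CPM in each role are named, except that 1 gene, like 1 allele of the mice, is not reported here, and like genes are the 3 with highest r. Gene positions are from GENCODE M21, which held 30934 of the feature IDs (99.6%). Scripts ran in Python 3.11.15 with pandas 2.3.3, scipy 1.17.1, matplotlib 3.10.9 and numpy 2.4.6.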

Additional observations from a re-analysis of the deposited data

How the results depend on the processing

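Of 16 member ratios past 2-fold in the gate and class comparisons, all 16 kept their direction in the 14 to 17 other settings run for each (limits on cells and gates, weighting of cells, scaling, cells of other lineages, deepest cells), and 12 also stayed past 2-fold. The number of called members moved by more than 1.5 times in 3 cases: between ATII Lyz2-low and Lyz2-high cells it was 0 relative to the median feature, and between GFP-positive and Stk11-positive cells it was 2 in ATII Lyz2-high cells with Lyz2 split at 200 (Tgfb2, 2.46-fold) and 2 in ATI cells with Hopx at 25 or more (Tgfb3, ratio 0.496). Of 56 ratios below 2-fold, 19 changed direction in at least 1 setting, so no direction should be read from those near 1. Tgfbi in GFP-positive over Stk11-positive cells ranged from 5.24-fold (relative to the median feature) to 7.43-fold (classes set after thinning), and in ATI cells was lowest at 7.71-fold (Hopx at 25 or more). Equal weight of the 4 gates, and bins without other lineages, were chosen after seeing the data. No paired analysis was possible because cells are not assigned to mice, and settings that leave out each mouse were not run for the same reason. Tgfb2 and Tgfb3 in ATII cells are limited by their low counts.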
